A study of Mus musculus with 4 samples.

Results

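The FGF receptors, 2 of their ligands and the inhibitors that damp their signal were followed through chondrogenic differentiation of ATDC5 cells, a mouse chondroprogenitor line. The set held 10 genes of the 19938 that could be named from 1 gene symbol on the array. They were the receptors Fgfr1, Fgfr2, Fgfr3 and Fgfrl1, the ligands Fgf2 and Fgf18, and the feedback inhibitors Spry1, Spry2, Spry4 and Dusp6. The genes were taken by name, with earlier results of these data known, and each had 1 probe set. For the day 15 samples the basal medium, with serum and ascorbic acid, was supplemented for 15 days with insulin, transferrin and selenite. Day 0 samples were the same line in the basal medium with ascorbic acid, before differentiation. Each day had 2 samples and each sample 1 whole-transcript array of total RNA. Both days are 1 established line in culture, and no cells kept for 15 days without the supplement were measured, so time in culture and the supplement cannot be told apart. No label states whether the 2 samples of a day were grown as separate cultures. The p-values therefore speak only for the spread among these 4 arrays, part of which may be technical.

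FGF receptors are tyrosine kinases of the cell surface that bind an FGF together with heparan sulfate and pass the signal to the Ras and ERK kinase cascade. ERK signalling turns on genes of its own inhibitors, among them the Sprouty proteins, which act on the cascade upstream of ERK, and Dusp6, a phosphatase that switches ERK off. In the growth plate Fgfr3 is known as the receptor of proliferating chondrocytes and as a brake on their growth, and mutations that activate it cause dwarfism in humans and mice.

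Fgfr3 and Spry1 were the members that rose at day 15, and no member fell. Fgfr3 was 3.22-fold and Spry1 2.95-fold higher at day 15. Among all genes 1.72% were called in the same test (limma on all genes, Benjamini-Hochberg adjusted p below 0.05), and 1.3% were called higher. The remaining 8 members were not called, with differences between −0.16 log2 for Dusp6 and 0.79 log2 for Fgfr1. On 6 of the 10 genes, the 4 receptors, Spry1 and Spry4, both day 15 arrays lay above both day 0 arrays, a pattern that 22.3% of all genes showed. On none did they lie below, against 17.8% of all genes, so the days did not overlap for 6 members, beside 40.1% of all genes. The median difference of the 10 members was 0.32 log2, against 0.02 log2 over all genes. In a bulk sample more cells with a transcript and more transcript per cell cannot be told apart.

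**Figure D1:**
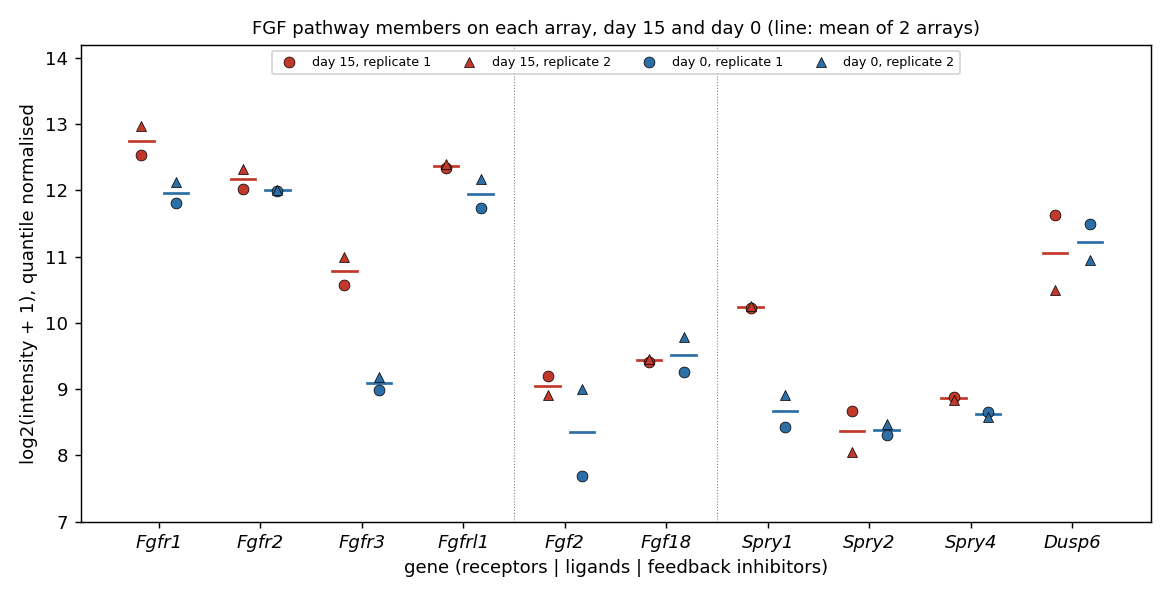
Level of each member on each array, as log2 of intensity plus 1 after quantile normalisation (vertical axis), by gene (horizontal axis: receptors, ligands, feedback inhibitors). Day 15 is red and day 0 blue, circles are replicate 1, triangles replicate 2 and lines the mean of 2 arrays. The days stand far apart for Fgfr3 (10.57 and 10.99 at day 15, 8.99 and 9.19 at day 0) and Spry1 (10.22 and 10.25 at day 15, 8.43 and 8.92 at day 0), while the Dusp6 arrays of the days overlap.

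The start regions of the pair that rose and of Spry2, the Sprouty relative that was not called, are shown as a description of these genes. The sequences are from RefSeq on assembly GRCm38.p6 and run from 250 bases before to 50 bases after the annotated gene start, so they cover the upstream flank and the beginning of the first exon. Capitals mark the motifs found on either strand. Of the 10 members 8 had an entry, and Fgfr3 had 2 start regions, of which the upstream one is shown. The Fgfr3 region is on chromosome 5 (chr5:33721474-33721773, + strand), the Spry1 region on chromosome 3 (chr3:37639697-37639996, + strand) and the Spry2 region on chromosome 14 (chr14:105896770-105897069, − strand).
Fgfr3: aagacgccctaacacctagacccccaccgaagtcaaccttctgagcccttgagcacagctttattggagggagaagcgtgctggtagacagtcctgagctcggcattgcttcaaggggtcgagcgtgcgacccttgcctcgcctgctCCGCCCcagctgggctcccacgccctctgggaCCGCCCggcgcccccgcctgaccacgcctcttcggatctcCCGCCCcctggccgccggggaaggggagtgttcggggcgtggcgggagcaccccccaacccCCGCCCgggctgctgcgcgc
Spry1: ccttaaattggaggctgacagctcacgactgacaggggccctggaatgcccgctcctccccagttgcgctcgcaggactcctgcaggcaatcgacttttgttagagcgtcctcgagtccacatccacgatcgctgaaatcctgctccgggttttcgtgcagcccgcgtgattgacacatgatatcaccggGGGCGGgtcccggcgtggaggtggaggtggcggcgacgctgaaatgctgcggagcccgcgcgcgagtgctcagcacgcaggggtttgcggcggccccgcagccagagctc
Spry2: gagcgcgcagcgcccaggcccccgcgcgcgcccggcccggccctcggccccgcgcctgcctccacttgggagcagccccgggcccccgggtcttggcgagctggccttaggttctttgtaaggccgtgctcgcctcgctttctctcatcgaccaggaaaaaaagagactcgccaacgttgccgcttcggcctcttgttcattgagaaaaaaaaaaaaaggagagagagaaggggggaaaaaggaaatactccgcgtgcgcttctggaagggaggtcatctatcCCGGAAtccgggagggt

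In the Fgfr3 region the capitals are 4 GC boxes (GGGCGG, the motif of Sp family factors), and in the Spry1 region 1 GC box. GC boxes were common, with 35.7% of all 32851 start regions of this length holding at least 1, beside 6 of the 9 member regions. In Spry2 the capitals are the only match there to the ETS core CCGGAA, the motif of the ETS family, which 2 of the 9 member regions and 14.9% of all start regions held. The AP-1 site TGANTCA was found in none of the 9 member regions and in 7.81% of all regions. The SOX site AACAAT was found in 1 of the 9, that of Dusp6, and in 10.7% of all. All motifs were searched on both strands, and none of the 4 overlaps another in these 3 regions. A match describes the letters and is no evidence of binding. Bases G and C made up 69.7% of the Fgfr3 region and 64.3% of the Spry1 region, close to the 62.7% of the Spry2 region and above the median of 52.7% over all regions.

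The arrays were first checked for the cells they represent. The cartilage markers were higher at day 15, and 6 of 8 rose, among them Hapln1, which links aggrecan to hyaluronan, Col10a1, the collagen of hypertrophic chondrocytes, and Acan, the aggrecan core protein. Their mean level was 11.25 and 11.70 log2 intensity on the day 15 arrays, against 8.37 and 8.49 on the day 0 arrays. Of the cartilage markers Sox9 (0.47 log2, limma adjusted p = 0.533) and Col9a1 (1.10 log2, 0.0733) were not called. The mean of the macrophage markers set the replicate numbers apart and not the days. It was 9.23 on replicate 1 and 7.40 on replicate 2 at day 15, against 9.32 and 7.41 at day 0. The complement gene C1qb was at 11.11 and 5.80 log2 on day 15 replicates 1 and 2, against 11.36 and 6.09 on day 0 replicates 1 and 2. Of the 8 macrophage markers 6 were higher in replicate 1 on both days, beside 34.1% of all genes. The other 2, Adgre1 and Ptprc, were lower there on both days, as were 28.5% of all genes. Between the days Cd68 differed most of the 8, by 1.20 log2 (limma adjusted p = 0.53). The mean level of the adipocyte list was 7.75 and 7.78 at day 15, against 8.04 and 8.08 at day 0. Of its 6 genes 1, Pparg, had an unadjusted p below 0.05, at a difference of −0.97 log2 (limma adjusted p = 0.0695). The endothelial list averaged 6.98 and 6.87 at day 15, against 6.72 and 6.75 at day 0, and 1 of its 5 genes, Emcn, had an unadjusted p below 0.05. The mean of the skeletal muscle list lay between 7.43 and 7.52 on the 4 arrays, with no gene at an unadjusted p below 0.05. No gene of the endothelial or skeletal muscle list, Emcn included, reached the median level of all genes. The part of the adipocyte and endothelial lists in the members' differences was not tested. No gene of the adipocyte, muscle, endothelial or macrophage lists was called.

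**Figure D2:**
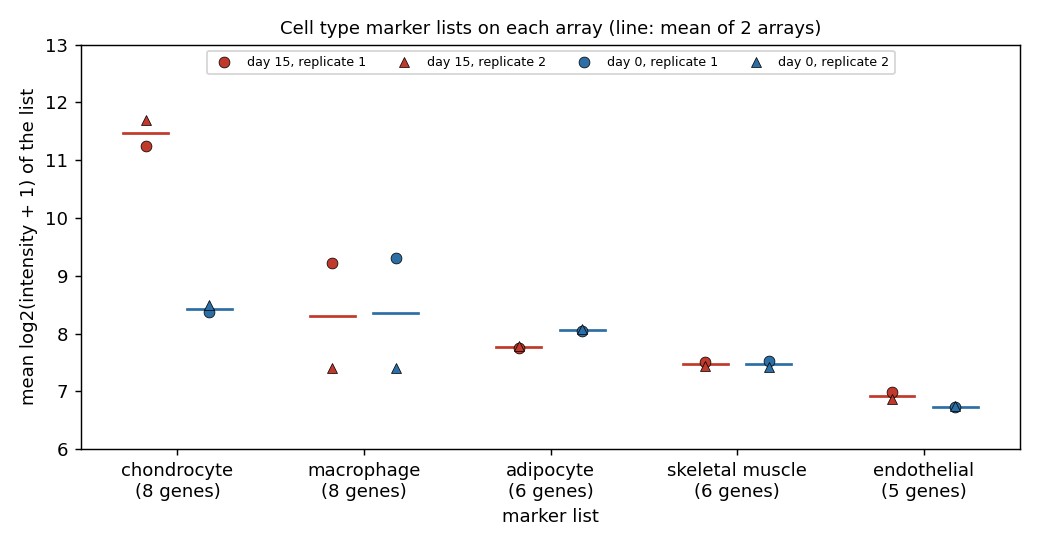
Mean log2 intensity of 5 marker lists (vertical axis) on each array, with day 15 in red left of day 0 in blue, circles for replicate 1, triangles for replicate 2 and lines for the mean of 2 arrays. The chondrocyte list separates the days (11.25 and 11.70 at day 15, 8.37 and 8.49 at day 0), and the macrophage list separates replicate 1 from replicate 2 on both days.

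Of the 4 receptors Fgfr3 had the largest difference. Its deposited intensity was 1521 and 2054 on the day 15 arrays, against 480 and 579 on the day 0 arrays. Both day 15 arrays were thus well above both day 0 arrays, with no overlap. Quantile normalised log2 intensities averaged 10.78 ± 0.30 on the day 15 arrays, against 9.09 ± 0.14 on the day 0 arrays (SD, n = 2 arrays each). The difference of 1.69 ± 0.21 log2 (limma's moderated SE) had an adjusted p of 0.0249 in limma, a 95% interval of 2.25-fold to 4.61-fold, and was exceeded in size by 1.42% of all genes. Between the arrays numbered 2, where the mean of the macrophage markers was low, Fgfr3 differed by 1.80 log2, and between those numbered 1 by 1.58 log2. Leaving out day 0 replicate 1 ended the call (limma adjusted p = 0.0684), as did leaving out day 15 replicate 2 (0.0694) or testing all 35512 probe sets of the array together (0.125).

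Fgfr1, a receptor of mesenchymal and hypertrophic cartilage cells, had intensities of 6002 and 8016 at day 15, against 3563 and 4422 at day 0. All day 15 values lay above all day 0 values. On the log2 scale this was 12.75 ± 0.31 at day 15 and 11.97 ± 0.22 at day 0 (SD, n = 2 arrays each). The difference of 0.79 ± 0.22 log2 (SE) did not pass over all genes (limma adjusted p = 0.227), and its 95% interval ran from 1.18-fold to 2.53-fold. Of all genes 6.19% had a larger difference in size.

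Fgfr2, a receptor of condensing mesenchyme and of the perichondrium, had intensities of 4160 and 5203 at day 15, against 4024 and 4113 at day 0. Day 15 replicate 1 was close to both day 0 arrays. Its difference was 0.17 ± 0.18 log2 (limma adjusted p = 0.865), with an interval of 0.82-fold to 1.54-fold, and it was 0.01 log2 without day 15 replicate 2 and 0.32 log2 without day 15 replicate 1. The array gives 1 value for the gene, so splice forms of the receptor that bind different ligands were not told apart. Fgfrl1, a receptor-like protein that binds FGFs but lacks the kinase domain, had intensities of 5181 and 5444 at day 15, against 3385 and 4543 at day 0. The day 0 arrays were more spread than the day 15 arrays and lay below them. The difference was 0.41 ± 0.20 log2 (limma adjusted p = 0.533), and it was 0.20 log2 without day 0 replicate 1 and 0.63 log2 without day 0 replicate 2. For Fgfr4, the remaining kinase receptor, which was not among the 10 genes, the arrays of the days overlapped at a difference of −0.05 ± 0.17 log2 (limma adjusted p = 0.979). The level of Fgfr4 was below the median of all genes.

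Whether Fgfr3 and Fgfr1 changed unequally was asked within each array. The log2 intensity of Fgfr3 minus that of Fgfr1 was −1.97 and −1.98 on the day 15 arrays, against −2.82 and −2.94 on the day 0 arrays. Replicates differed by little beside the gap between the days. The difference of Fgfr3 exceeded that of Fgfr1 by 0.90 log2, which is 1.87-fold, and by 0.84 to 0.96 log2 when any 1 array was left out. With 2 arrays against 2 the two-sided exact permutation test gave p = 0.333, the smallest value this design allows, so the comparison cannot pass a threshold of 0.05. Other pairs of receptors were not compared.

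**Figure D3:**
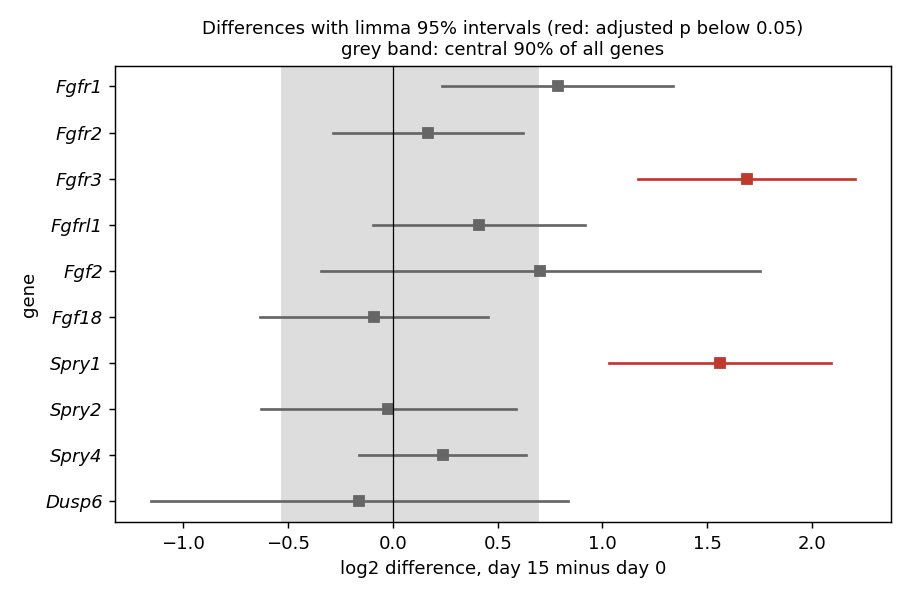
Difference of each member between day 15 and day 0 on the log2 scale (horizontal axis) with limma's 95% interval, by gene (vertical axis). Red marks an adjusted p below 0.05, and the grey band holds the central 90% of all genes, from −0.53 to 0.69 log2. The intervals of Fgfr3 and Spry1 lie wholly to the right of the band, and those of Fgfr2, Fgfrl1, Fgf2, Fgf18, Spry2, Spry4 and Dusp6 include 0.

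Neither ligand was called. Fgf2, a widely expressed FGF and a mitogen of many mesenchymal cells, had intensities of 583 and 515 at day 15, against 196 and 513 at day 0. Only day 0 replicate 1 stood apart, and day 0 replicate 2 was nearly equal to day 15 replicate 2. The difference of 0.70 ± 0.42 log2 (limma adjusted p = 0.647) became 0.05 log2 without day 0 replicate 1 and 1.36 log2 without day 0 replicate 2 (limma adjusted p = 0.996 and 0.1). Fgf18, a ligand made by the perichondrium that acts on growth plate chondrocytes, had intensities of 681 and 735 at day 15, against 589 and 859 at day 0. The day 15 values lay between the day 0 values. The difference was −0.09 ± 0.22 log2 (limma adjusted p = 0.967), with an interval of 0.645-fold to 1.37-fold.

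Among the feedback inhibitors Spry1 rose while the other Sprouty genes were not called. Spry1 had intensities of 1197 and 1252 at day 15, against 320 and 484 at day 0. The day 15 arrays were nearly equal and both lay far above the day 0 arrays. Log2 intensities averaged 10.24 ± 0.02 on the day 15 arrays, against 8.67 ± 0.35 on the day 0 arrays (SD, n = 2 arrays each). The difference was 1.56 ± 0.21 log2 (limma adjusted p = 0.033), with an interval of 2.05-fold to 4.26-fold, and 1.64% of all genes differed more. It was 1.33 log2 between the arrays numbered 2 and 1.79 log2 between those numbered 1. Its call ended when day 0 replicate 1 was left out (limma adjusted p = 0.0762), when either day 15 replicate was (0.119 for replicate 1, 0.104 for replicate 2), and when all probe sets were tested together (0.153).

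Spry2, a Sprouty protein that like Spry1 restrains receptor tyrosine kinases, had intensities of 397 and 289 at day 15, against 296 and 359 at day 0. The days overlapped, and the day 15 pair was the wider. The difference was −0.02 ± 0.25 log2 (limma adjusted p = 0.993) with an interval of 0.646-fold to 1.5-fold, and its sign turned with the deposited scaling (0.05 log2) and with median centring (0.01 log2). Spry4, a further member of the family, had intensities of 459 and 495 at day 15, against 378 and 387 at day 0. Its arrays of the days did not overlap, but the difference was only 0.24 ± 0.16 log2 (limma adjusted p = 0.706). Within each array, the log2 intensity of Spry1 minus that of Spry2 was 1.54 and 2.19 at day 15, against 0.12 and 0.45 at day 0. The difference of Spry1 thus exceeded that of Spry2 by 1.58 log2 (1.26 to 1.91 with any 1 array left out), with the same smallest possible exact permutation p of 0.333 (two-sided, 2 arrays against 2). Among the feedback inhibitors of the set, Spry1 had the largest difference in size and Spry2 the smallest. Other pairs of inhibitors were not compared.

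Dusp6, the cytoplasmic phosphatase of ERK and a common readout of FGF signalling, had intensities of 3171 and 1469 at day 15, against 2860 and 1942 at day 0. Replicate 1 was the higher on both days, so the arrays followed the replicate number more than the day. Log2 intensities averaged 11.06 ± 0.80 on the day 15 arrays, against 11.22 ± 0.39 on the day 0 arrays (SD, n = 2 arrays each), and the difference was −0.16 ± 0.40 log2 (limma adjusted p = 0.967). Its 95% interval ran from 0.449-fold to 1.78-fold, so a change within that range was not told apart from none. The interval is no limit of detection. The smallest difference called for any gene was 1.04 log2. With an SE of 0.40 log2, Dusp6 would have needed a larger difference than that to be called. Without day 15 replicate 1 the difference was −0.73 log2, and without day 15 replicate 2 it was 0.41 log2, neither called. The mean of the macrophage markers was also higher in replicate 1, and the part of these markers in the Dusp6 values was not tested. On the quantile normalised scale Spry4 was the other member higher in replicate 1 on both days, although its deposited intensities ran the other way, and 6 members were lower there on both days, while 34.1% of all genes were higher and 28.5% lower in replicate 1 on both days.

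The rest of the pathway was described with 6 gene lists, of which 115 of 126 genes were measured and the other 11 were not analysed here. None of the 115 rose and 2 fell, beside 1.3% of all genes called higher and 0.411% called lower. Their median difference was 0.03 log2, against 0.02 log2 over all genes. Of the 16 other FGF ligands none was called in limma and 1 had an unadjusted p below 0.05, beside 12.2% of all genes. This was Fgf7, a ligand that mesenchymal cells make for neighbouring epithelium, which averaged 12.44 ± 0.04 log2 on the day 15 arrays, against 13.13 ± 0.08 log2 on the day 0 arrays (SD, n = 2 arrays each). Its difference of −0.69 ± 0.16 log2 did not pass (limma adjusted p = 0.153), except with an intensity trend and robust hyperparameters (0.0251). Fgf6, which lay below the median level of all genes, differed by 0.32 log2 and Fgf1 by 0.27 log2. Only 3 of the 16 ligands reached that level. No detection call was used, so whether the others were detected is not known.

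Coreceptors and proteins that bind FGFs outside the cell were not called either, with none of 23 in limma and 4 at an unadjusted p below 0.05, beside 12.2% of all genes. Their median difference was 0.17 log2. Hspg2, the perlecan of cartilage matrix, which carries heparan sulfate, was at 10.40 and 12.03 log2 on the day 15 arrays, against 12.33 and 12.17 on the day 0 arrays. Only day 15 replicate 1 was far below the others. The mean difference was −1.04 ± 0.51 log2 (limma adjusted p = 0.527). It became −1.85 log2 without day 15 replicate 2 and passed there (limma adjusted p = 0.0375), and it was −0.22 log2 without day 15 replicate 1. Of all 23 genes of the list 17 had a positive and 6 a negative difference, beside 10598 and 9334 of all 19938 genes. Cell surface carriers of heparan sulfate lay on both sides of 0. Gpc1 (0.74 ± 0.20 log2, limma adjusted p = 0.209) and Sdc2 (0.66 ± 0.18 log2, 0.216) had both day 15 arrays above both day 0 arrays, as had 22.3% of all genes. Gpc6 (−0.66 ± 0.21 log2, 0.291) had both day 15 arrays below both day 0 arrays, as had 17.8% of all genes, and was at −0.41 log2 without day 0 replicate 1. Of the 17 genes listed under heparan sulfate synthesis none was called and 5 had an unadjusted p below 0.05, beside 12.2% of all genes. Hpse, which cuts heparan sulfate rather than building it, had the largest difference there at 0.95 ± 0.16 log2 (limma adjusted p = 0.0635). It passed with an intensity trend and robust hyperparameters (limma adjusted p = 0.028). The glycosyltransferases Extl1 (0.73 log2) and Extl2 (0.62 log2) followed. Hpse and Extl1 lay below the median level of all genes.

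Adaptors and kinases between the receptor and ERK showed no call among the 19 measured genes, with 2 at an unadjusted p below 0.05 in limma, beside 12.2% of all genes. The adaptor Shc1 differed by 0.61 ± 0.17 log2 (limma adjusted p = 0.201), the ubiquitin ligase Cbl, which marks active receptors for removal, by −0.61 ± 0.24 log2 (0.397) and the kinase Braf by −0.47 ± 0.25 log2 (0.581). Without day 15 replicate 1 Cbl differed by −0.30 log2 and Braf by −0.21 log2, and without day 0 replicate 2 Braf differed by −0.26 log2.

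Of 19 other feedback inhibitors Dusp5 fell and none rose. Dusp5, a nuclear phosphatase of ERK, was at 9.58 and 8.88 log2 on the day 15 arrays, against 10.93 and 11.05 on the day 0 arrays. All day 15 values were below all day 0 values. It fell by 1.76 on the log2 scale (SE 0.26, limma adjusted p = 0.0422), a call that ended when either day 0 array was left out (0.0775 for replicate 1, 0.108 for replicate 2), when day 15 replicate 2 was (0.0706), and over all probe sets (0.183). Dusp10, a phosphatase of the stress kinases p38 and JNK, was at 11.10 ± 0.02 at day 15 and 12.11 ± 0.07 at day 0 (SD, n = 2 arrays each), just outside the threshold (limma adjusted p = 0.0516). It passed with a pseudocount of 16 (0.0414), with an intensity trend (0.0248) and among genes at or above the median level (0.04). Il17rd, the membrane protein Sef that inhibits FGF receptor signalling, was at 9.22 ± 0.15 at day 15 and 8.38 ± 0.13 at day 0, a difference of 0.84 ± 0.18 log2 that did not pass (limma adjusted p = 0.119).

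**Figure D4:**
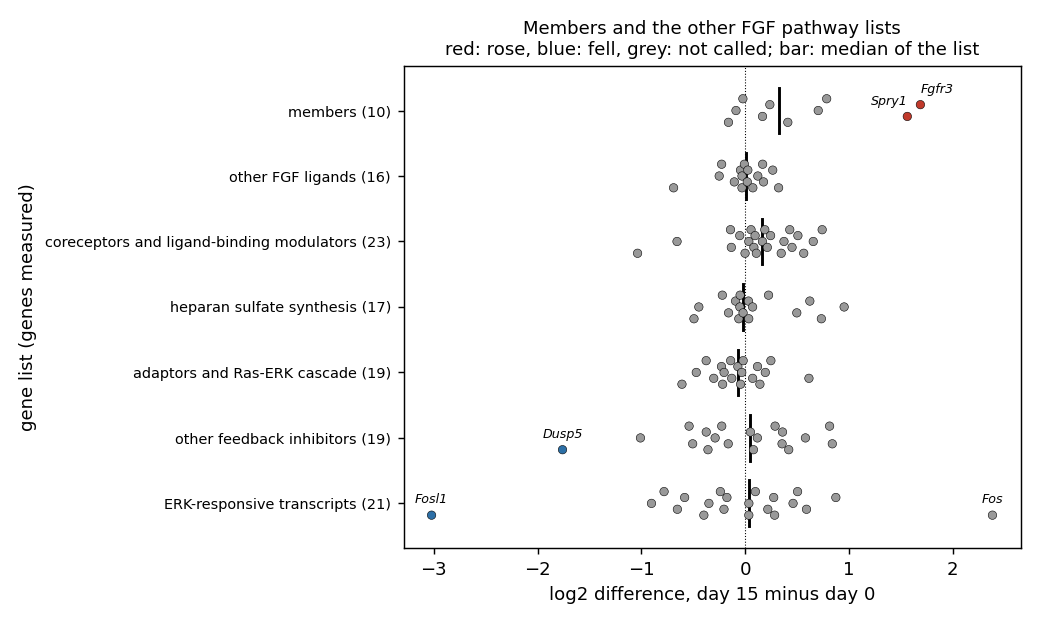
Difference between day 15 and day 0 (horizontal axis, log2) of each gene of the members and of 6 other lists (vertical axis, with the number of genes measured). Red genes rose, blue genes fell, grey genes were not called, and black bars are list medians. Apart from Fgfr3 and Spry1, the called genes are Dusp5 and Fosl1, which fell, and Fos lies far right without being called.

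Of 21 transcripts known to respond to ERK 1 fell and none rose. Fosl1, an AP-1 transcription factor subunit, was at 8.84 and 8.97 log2 at day 15, against 11.48 and 12.38 at day 0, and fell by 3.02 on the log2 scale (SE 0.31, limma adjusted p = 0.0141). That call was lost without day 15 replicate 1 (0.0609) and with all probe sets together (0.102). Fos, another AP-1 subunit, was at 11.89 and 11.64 log2 at day 15, against 10.78 and 7.99 at day 0. The day 0 arrays were far from each other, and the difference of 2.38 ± 0.84 log2 did not pass (limma adjusted p = 0.333), though it did, at 3.78 log2, without day 0 replicate 1 (0.0033). Myc differed by −0.90 ± 0.32 log2 (limma adjusted p = 0.339), and by −0.46 log2 without day 15 replicate 1. In the list as a whole 8 of 21 genes had an unadjusted p below 0.05, beside 12.2% of all genes, and the median difference was 0.04 log2. The ETS factors Etv4 and Etv5, which are commonly read as targets of FGF signalling and were picked out after their values were seen, differed by 0.04 ± 0.25 log2 and −0.35 ± 0.41 log2 (limma adjusted p = 0.991 and 0.883). Etv4 lay below the median level of all genes, and Etv5 had 2 probe sets, of which only the brighter is given.

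The genes whose profile over the 4 arrays lay closest to Fgfr3, after each gene was centred on its own mean, were Elmo1, an activator of Rac signalling, at a distance of 0.17 log2, Daam2, a formin linked to Wnt signalling, at 0.19 log2, and Col11a1, a fibrillar collagen of cartilage, at 0.21 log2. Col11a1 was at 11.47 and 11.95 log2 at day 15, against 10.16 and 10.13 at day 0. Closest to Spry1 were Tcn2, a cobalamin carrier, at 0.14 log2, the metallothionein Mt1 at 0.14 log2 and the G protein subunit Gng2 at 0.15 log2. These were the nearest of 9961 genes at or above the median level, by Euclidean distance over 4 arrays, and are a description only.

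The location of the called members was also looked at, after their values had been seen. Fgf2 and Spry1 lie on chromosome 3 with only 2 tested protein-coding genes between them, Nudt6 and Spata5, by the order of genes in RefSeq. Nudt6 differed by 0.04 log2 and Spata5 by −0.27 log2, and neither was called. On the other side of Spry1 the nearest tested genes, Gm5148 and Ankrd50, differed by −0.14 and −0.02 log2. Beside Fgfr3 on chromosome 5, Tacc3 and Tmem129 on one side differed by −0.45 and 0.20 log2, and Letm1 and Nsd2 on the other by −0.04 and −0.25 log2. None of these neighbours was called in limma (adjusted p from 0.729 to 0.996).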

How the data were processed

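The authors deposited a table of processed probe set intensities, 1 column per sample. Their range, 0.72 to 23103, shows a linear scale. The labels' protocols give a biotin label and a whole-transcript kit, and the genome build was mm9, per the submitters' processing notes. How background, probe summary and scaling were handled is not given in the sources used here, and no detection call was used. The number of arrays limits precision. Of 35512 probe sets 21789 had 1 gene symbol in the platform annotation, 1621 several and 12102 none. Identifiers of 21698 were found in RefSeq (GRCm38.p6), and the brightest probe set per gene left 19938 genes. Values were turned to log2 after adding 1 and quantile normalised over all probe sets, since array medians differed by up to 0.20 log2. Differences on this scale understate changes of dim genes. Of the 10 members 8 reached the median level of all genes, and Fgf2 and Spry2 were below it.

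The comparison of day 15 with day 0 used lmFit and eBayes of limma 3.58.1 (R 4.3.3) with group as the only term, adjusted over all genes. Log2 values of single members come from that fit, and contrasts within an array were tested by exact permutation. In simulated data for this comparison, with 19938 genes, limma found 6% of genes changed by 1 log2, 92% of those changed by 2 log2, 96% by 3 log2 and 98% by 4 log2, and 4.58% of calls were false. Alternatives changed the scaling, the pseudocount, the variance model, the filter, the probe set rule, the set of features tested, the replicate block and the arrays left out. Named genes were all members, called genes of each list with up to 3 of the largest differences where fewer than 2 were called, Fgfr4, Il17rd, and the 3 nearest profiles of Fgfr3 and Spry1. Named outside that rule, after their values were seen, were Etv4, Etv5, Sdc2, the neighbouring genes, C1qb, Emcn, Pparg and the named cartilage markers. The macrophage markers Adgre1, Ptprc and Cd68 were also named in this way. The members and lists were chosen with earlier results of these data known. Plots used matplotlib 3.10.9 (Python 3.11.15).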

Additional observations from a re-analysis of the deposited data

How the results depend on the processing

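All differences of Fgfr1, Fgfr2, Fgfr3, Fgfrl1, Fgf2, Spry1 and Spry4 kept their sign under every alternative that tested them. The variance model, filter, probe set rule, set of features tested and replicate block did not alter a member's difference. Signs could thus turn only with the scaling, the pseudocount or the arrays left out. Fgfr3 ranged from 1.48 to 1.90 log2 and was called in 9 of 12 alternatives, and Spry1 ranged from 1.32 to 1.81 log2 and was called in 8 of 12. Both members stayed called under each change of scaling, pseudocount, variance model, filter and probe set rule. With all probe sets tested together, which adjusts over more features, 0 members, 0 genes of the other lists and 74 probe sets were called (limma, with 3 members and 16 genes of the other lists at an unadjusted p below 0.05). When 1 array was left out, 0 to 2 members, 178 to 284 genes and 1 to 2 genes of the other lists were called, where a day's single array is taken to vary as the arrays of the other day do. An intensity trend with robust hyperparameters called 5 genes of the other lists. Deviations of arrays with the same replicate number correlated across genes at 0.40, but with 2 numbers this does not show that they pair the samples. With the replicate number as a block 2 members, 628 genes and 5 genes of the other lists were called. The 5 include Dusp10 (limma adjusted p = 0.0351) and Hpse (0.0426), which were not called without it. Signs turned only for differences that were never called. Spry2 turned on the deposited scaling (0.054 log2) and with median centring (0.0095). With 1 array left out, the range was −0.33 to 0.29 log2 for Spry2, −0.73 to 0.41 for Dusp6, −0.35 to 0.17 for Fgf18, −0.24 to 0.77 for Fgf1 and −0.13 to 0.026 for Fgfr4. The cause was not tested. Fgf2, Spry2 and other dim genes were left out by the filter at the median level, so they have no value there.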
